A study of Homo sapiens with 10 samples.

Results

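The genes described here were 10 epigenetic regulators that are recurrently mutated, rearranged or studied as relatives of mutated genes in acute myeloid leukemia (AML): DNMT3A, DNMT3B, TET1, TET2, TET3, IDH1, IDH2, ASXL1, EZH2 and KMT2A. They were taken by their symbols, as a set proposed with earlier results of these data known, and all 10 were present among the 19590 genes of the expression table and among the 13110 genes tested. The cells were MV4-11, an established human AML line with a FLT3-ITD and a KMT2A-AFF1 gene fusion. The Control group held 4 RNA-Seq libraries of MV4-11 cells infected with the control vector. The IRF8 KO group held 4 libraries of MV4-11 cells in which the transcription factor gene IRF8 had been targeted by CRISPR/Cas9. According to the methods of the study, the cells were selected with puromycin and knockout cells were grown as clones by limiting dilution, so that both groups carried a lentiviral vector. The methods describe several knockout clones, made with different guide RNAs. The sources used here do not say which library came from which clone, so the knockout libraries may differ by clone or guide. Nothing in the labels says that the replicates of a group were separate cultures. The p-values therefore measure the spread between these libraries, which may be technical or, in IRF8 KO, lie between clones.

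Gene activity in hematopoietic cells depends on chemical marks on DNA and on histones. DNMT3A and DNMT3B place methyl groups on cytosines, and the TET enzymes oxidize methylated cytosine as a step towards its removal. The TET enzymes need alpha-ketoglutarate, which IDH1 in the cytosol and IDH2 in mitochondria make from isocitrate. EZH2 is the catalytic subunit of Polycomb repressive complex PRC2, which methylates histone H3 at lysine K27. ASXL1 is the partner of the deubiquitinase BAP1, which removes the ubiquitin that PRC1 complexes place on histone H2A. KMT2A methylates histone H3 at lysine K4, and fusions of its gene with partner genes such as AFF1 drive a class of acute leukemias.

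Reads on genes numbered from 39560072 to 65519047 per library, the fewest in IRF8 KO replicate 3. Values are normalized counts, that is, read counts that the authors divided by a size factor for each library, and they are compared between libraries for one gene, not between genes, because no transcript lengths were used here. Log2 fold changes compare the group means of log2(normalized count + 1), IRF8 KO minus Control. They carry a standard error (SE) and a Benjamini-Hochberg adjusted p-value over all 13110 genes from limma, a linear model that pools the variance across genes, and a gene was called at an adjusted p below 0.05. The targeted gene IRF8 had 36891, 15192, 43016 and 22535 normalized counts in Control replicates 1 to 4 and 6377, 2401, 12903 and 7820 in IRF8 KO replicates 1 to 4. The groups did not overlap, and IRF8 mRNA in the knockout was 25.1% of the Control mean (log2 fold change -2.11, SE 0.51, adjusted p = 0.022 by limma), although transcripts were still counted in every knockout library. That call was lost without Control replicate 1 (adjusted p = 0.058), Control replicate 3 (0.057) or IRF8 KO replicate 1 (0.053). The mRNA counts are not a measure of the protein. By Western blot, the paper reports that the knockout clones lacked IRF8 protein, and by ChIP-qPCR that IRF8 was lost from its target genes. Of 10 myeloid markers, all 10 had at least 10 normalized counts in every library. Their summed level lay between 83506 and 96316 in Control and between 109127 and 344992 in IRF8 KO, and the rise of the sum came mostly from LYZ (1734 to 14757 in Control, 13767 to 248604 in IRF8 KO), with MPO and CD68, whereas MEIS1 (2904 to 3519 in Control, 1769.9 to 2663 in IRF8 KO) lay lower in the knockout. The myeloid list thus did not move in a single direction. T cell markers summed to at most 20.3 in any library, erythroid markers to at most 47.4, and B cell markers to between 193 and 512 in Control and between 167 and 923 in IRF8 KO, of which CD79A reached 881. Among 4 epithelial markers, KRT8 and KRT18 brought the sum to between 1473 and 3728 in Control and between 60.7 and 242 in IRF8 KO, while EPCAM and CDH1 did not exceed 1.88. The part of these shifts in the results below was not tested.

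Of the 10 regulators, 2 were called: DNMT3B and ASXL1 were lower in IRF8 KO. The same call was made for 18.2% of all tested genes, and for 9.56% in the lower direction, so that the count by itself was near the background. DNMT3B and ASXL1 are the only members on chromosome 20, and 61% of the 351 tested genes of that chromosome were called lower, with 62.7% lower in the knockout without overlap. None of the other 8 members was called by limma or by edgeR or DESeq2 on the recovered reads. The lowest unadjusted p-values by limma among these 8 were 0.023 for TET3 and 0.029 for IDH1, with adjusted p-values of 0.093 and 0.11. With the replicate number as a block, which compares libraries of the same number although deviations also went together across numbers 1 and 3 and across 2 and 4, 4 of the 10 members were called (DNMT3B, ASXL1, TET3 and IDH1), against 28.7% of all genes, 14.6% lower and 14.2% higher. The values of Control and IRF8 KO did not overlap for 3 members, all lower in the knockout (DNMT3B, TET3 and ASXL1), against 25.3% of all tested genes in either direction and 13% in the lower direction. The median log2 fold change of the 10 was 0.05, with 6 above and 4 below zero, beside a median of -0.00 over all tested genes. The study set a p-value limit of 0.01 together with a 2-fold change. Applied here to the unadjusted p-value, only DNMT3B passed both, as did 10.9% of tested genes, 6.12% in the lower direction.

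**Figure D1:**
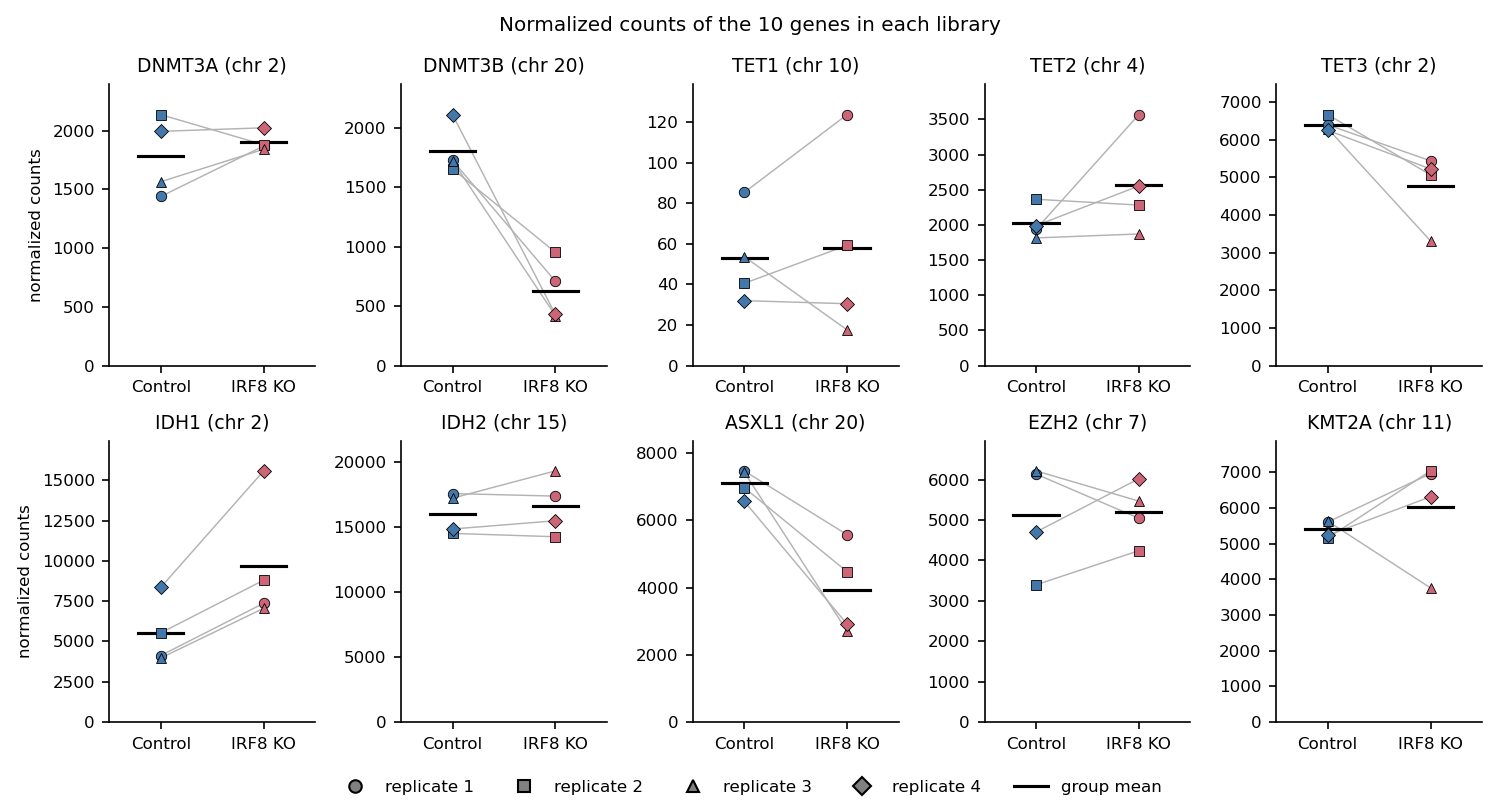
Normalized counts (linear axes from 0) of the 10 genes in each of the 4 Control (blue) and 4 IRF8 KO (red) libraries. Marker shapes show the replicate number, grey lines join libraries of the same number and black bars are group means. DNMT3B, ASXL1 and TET3 did not overlap between groups, and IDH1 was higher in the knockout in 4 of 4 same-numbered pairs.

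Of the enzymes that write DNA methylation, DNMT3B fell and DNMT3A was not called. DNMT3B, best known for methylation of repeats and centromeric DNA, had 1726, 1656, 1725 and 2112 normalized counts in the 4 Control libraries and 711, 954, 421 and 431 in the 4 IRF8 KO libraries. All knockout values lay below all Control values, and replicates 3 and 4 of the knockout were the lowest. The knockout mean was 34.9% of the Control mean (log2 fold change -1.60, SE 0.27, adjusted p = 0.0041 by limma, exact two-sided permutation p = 0.029, the smallest that 4 against 4 libraries allow). The call held in each fit that left out a library, with log2 fold changes from -1.83 to -1.44. DNMT3A, the de novo methyltransferase most often mutated in AML, had 1440.0, 2137, 1566 and 1994 normalized counts in Control and 1869, 1880.1, 1842 and 2025 in IRF8 KO. Its knockout values all lay within the Control range, and the log2 fold change was 0.11 with a 95% confidence interval from -0.22 to 0.45 (adjusted p = 0.67 by limma). DNMT3A was also the member with the most even knockout values, with a coefficient of variation of 4.31% in IRF8 KO and 18.7% in Control.

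Within each library, the count ratio of DNMT3B to DNMT3A does not depend on the scaling of the library. It lay between 0.775 and 1.20 in Control and between 0.213 and 0.507 in IRF8 KO, without overlap. The log2 ratio was lower by 1.71 in the knockout (exact permutation p = 0.029, adjusted p = 0.071 over the 5 ratios tested). A ratio shows that the changes of the pair were unequal, not which of them changed. DNMT1, the maintenance methyltransferase, had a log2 fold change of -0.34 (adjusted p = 0.25 by limma).

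The 18 tested genes of a list of other DNA methylation factors included 3 that were called, all lower. This was 16.7%, against 18.2% of all tested genes, and the median log2 fold change of the 18 was -0.19. UHRF1, which brings DNMT1 to hemimethylated DNA, fell by 0.81 on the log2 scale, from 49765 to 27822 mean normalized counts (adjusted p = 0.029 by limma). USP7, a deubiquitinase that binds DNMT1 and UHRF1, fell by 0.45 (adjusted p = 0.019). ZBTB38, a zinc finger protein that binds methylated DNA, had the lowest value in this list, with 387 to 521 normalized counts in Control and 29.8 to 194 in IRF8 KO (log2 fold change -2.40, adjusted p = 0.013). None of these 3 genes is on chromosome 20. The ZBTB38 call held when any library was left out, whereas UHRF1 lost it in 5 of the 8 such fits (without Control replicates 1 or 3, or IRF8 KO replicates 1, 3 or 4) and USP7 in 3 (without Control replicates 1, 3 or 4). By edgeR or DESeq2 on the recovered reads, all 3 were called.

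ASXL1 had 7477, 6976, 7439 and 6573 normalized counts in Control and 5577, 4473, 2704 and 2913 in IRF8 KO. The groups did not overlap, and, as for DNMT3B, replicates 3 and 4 of the knockout were the lowest. The knockout mean was 55.0% of the Control mean (log2 fold change -0.92, SE 0.23, adjusted p = 0.023 by limma, exact permutation p = 0.029). This call was less firm than that of DNMT3B. It was lost without Control replicate 1 (adjusted p = 0.059), Control replicate 3 (0.057), IRF8 KO replicate 3 (0.052) or IRF8 KO replicate 4 (0.065), while the log2 fold change stayed between -1.12 and -0.77.

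ASXL1 and DNMT3B are close neighbors, with only 2 tested genes between them, NOL4L (log2 fold change -2.49) and COMMD7 (-0.81). Their RefSeq promoter windows (250 bases before to 50 after a transcription start, assembly GRCh38.p14) are shown because these are the 2 members that were lower together. CpG dinucleotides, the sites that DNA methyltransferases modify, are in capitals. Of the 3 ASXL1 windows, which hold 29, 31 and 32 CpG dinucleotides, the one at the outermost start, chr20:32358081-32358380 on the plus strand with 29, is printed. The DNMT3B window, the only one in the table for this gene, is chr20:32779602-32779901 on the plus strand, starts from a transcript 17467 bases downstream of the outermost RefSeq start, and holds 3.
ASXL1: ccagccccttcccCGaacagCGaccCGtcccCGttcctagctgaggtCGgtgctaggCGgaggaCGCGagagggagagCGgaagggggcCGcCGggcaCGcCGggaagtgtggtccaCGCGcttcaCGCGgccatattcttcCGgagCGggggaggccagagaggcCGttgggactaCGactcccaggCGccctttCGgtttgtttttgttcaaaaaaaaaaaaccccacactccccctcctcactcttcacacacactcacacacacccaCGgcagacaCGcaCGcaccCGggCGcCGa
DNMT3B: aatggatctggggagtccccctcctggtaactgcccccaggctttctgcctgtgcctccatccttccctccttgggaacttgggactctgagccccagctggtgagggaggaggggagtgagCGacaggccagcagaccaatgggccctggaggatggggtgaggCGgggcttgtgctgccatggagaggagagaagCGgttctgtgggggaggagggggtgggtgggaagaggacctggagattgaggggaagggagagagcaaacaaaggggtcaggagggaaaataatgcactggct
The median over the 35116 RefSeq promoter windows of this length was 14 CpG dinucleotides, and the 23 windows of the 10 members held between 3 and 46. The printed windows of the pair lay on either side of that median, but they are not alike. The ASXL1 window is at the outermost start and the DNMT3B window at an internal start. CpG dinucleotides at the outermost DNMT3B start were not counted here. Methylation was not measured in these samples.

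The 351 tested genes of chromosome 20 were lower in IRF8 KO as a group. Their median log2 fold change was -0.92, their interquartile range ran from -1.24 to -0.61, and 91.7% were below zero, against 50.1% of all tested genes. The chromosome median was shifted by between -0.98 and -0.85 in each of the 4 knockout libraries and by between -0.07 and 0.08 in the Control libraries. The 10 tested genes nearest to ASXL1, 5 on each side, were all lower, with a median of -0.83 and 3 called, and so were the 10 nearest to DNMT3B, with a median of -0.88 and 6 called. These are not separate neighborhoods, since 6 genes are in both sets and each set holds the other member, without which 2 and 5 genes were called. ASXL1 had the same log2 fold change as the median of its chromosome, and 50.4% of chromosome 20 genes were at least as low. DNMT3B was lower than most, with 14.8% of chromosome 20 genes at least as low.

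To measure what remained beyond that shift, the chromosome 20 genes of each library were centered on their chromosome median and the fit over all genes was repeated. In this fit 16.6% of all genes and 19.9% of chromosome 20 genes were called. ASXL1 had a relative log2 fold change of -0.02 (SE 0.22, 95% confidence interval -0.52 to 0.48, adjusted p = 0.96 by limma). Relative to the chromosome median it was at 0.50 and 0.23 in IRF8 KO replicates 1 and 2 and at -0.50 and -0.31 in replicates 3 and 4, so that the libraries lay on either side of it. DNMT3B had a relative log2 fold change of -0.70 (SE 0.25, adjusted p = 0.097 by limma, 0.063 with the replicate block, exact permutation p = 0.086) and thus did not pass the test. It was at -0.49, -0.01, -1.20 and -1.08 in IRF8 KO replicates 1 to 4. Replicate 2 alone lay at the chromosome median, and without it the relative log2 fold change was -0.92 (adjusted p = 0.015 by limma). The part of the chromosome-wide shift in the lower DNMT3B and ASXL1 mRNA cannot be told apart from the genotype, since every knockout library carried it and no Control library did.

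**Figure D2:**
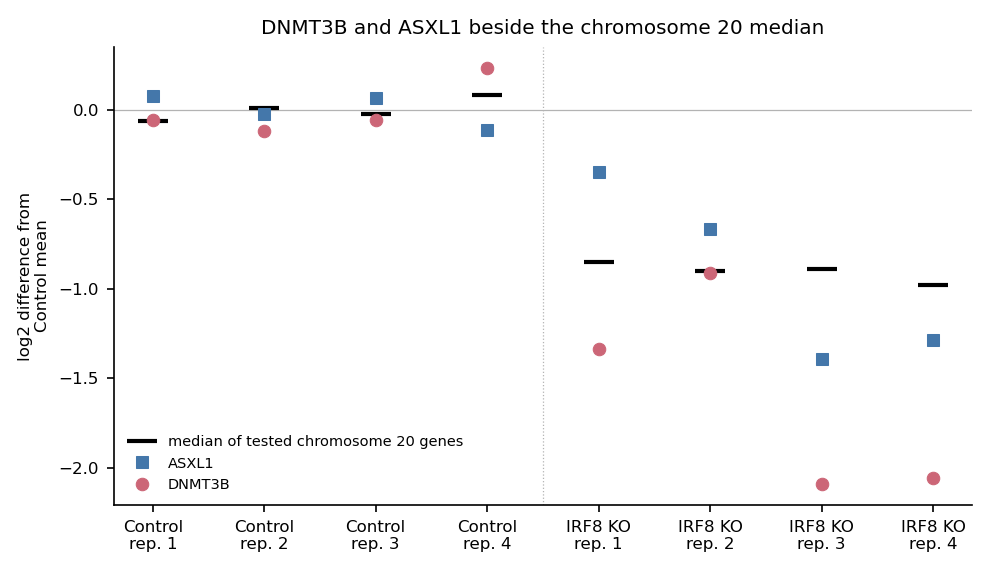
Log2 difference of DNMT3B (circles) and ASXL1 (squares) from their Control means in each of the 8 libraries, beside the median of the 351 tested chromosome 20 genes (bars). The median sat between -0.98 and -0.85 in the knockout libraries. ASXL1 lay above it in replicates 1 and 2 and below it in replicates 3 and 4, and DNMT3B lay well below it in replicates 1, 3 and 4 and at it in replicate 2.

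The 3 TET enzymes, which oxidize methylated cytosine, showed no common direction. TET3 had 6391, 6663, 6294 and 6246 normalized counts in Control and 5437, 5064, 3310 and 5221 in IRF8 KO. The Control values were nearly equal, with a coefficient of variation of 2.91%, and all knockout values lay below them, the lowest in replicate 3. The knockout mean was 74.4% of the Control mean (log2 fold change -0.45, SE 0.16), which did not pass the test without the block (adjusted p = 0.093 by limma) and passed it with the block (adjusted p = 0.048 by limma, 0.044 by edgeR). The exact permutation p was 0.029, at the smallest value possible. Without IRF8 KO replicate 3 the log2 fold change was -0.29.

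TET2, whose loss-of-function mutations are frequent in AML, had 1936, 2364, 1815 and 1989 normalized counts in Control and 3567, 2282, 1871 and 2553 in IRF8 KO. The groups overlapped, and IRF8 KO replicate 1 stood highest. The log2 fold change was 0.31 with a 95% confidence interval from -0.14 to 0.75 (adjusted p = 0.33 by limma). TET1, a minor transcript here, had 85.3, 40.5, 53.7 and 32.01 normalized counts in Control and 124, 59.3, 17.6 and 30.5 in IRF8 KO. At this depth its interval ran from -1.47 to 1.19 around a log2 fold change of -0.14 (adjusted p = 0.91 by limma), so that a rise or a fall of about 2-fold was not detectable, and the sign itself turned with edgeR (0.12), DESeq2 (0.13) and quantile normalization.

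The count ratio of TET3 to TET2 lay between 2.82 and 3.47 in Control and between 1.52 and 2.22 in IRF8 KO. The ranges did not overlap, and the ratio was lower in the knockout. The log2 ratio differed by -0.76 (exact permutation p = 0.029, adjusted p = 0.071 over the 5 ratios). The ratio of TET1 to TET2 differed by -0.45 on the log2 scale, with overlapping groups (exact permutation p = 0.46, adjusted p = 0.57).

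A search of the promoter windows of all 10 members, on both strands, was made for GGAANNGAA, the composite site of ETS and IRF factors, and for GAAANNGAA, the core of the interferon-stimulated response element. The first was found in 0 of the 23 member windows and in 7.79% of all RefSeq windows. The second was found in 1 member window and in 8.11% of all windows. That window belongs to TET2 (chr4:105145625-105145924, plus strand), where the match starts 27 bases into the transcript and is shown in capitals within 29 bases of sequence because it is the only match among the members.
TET2: ggggcggggaGAAACAGAActcggtcaat
A match is a description of these letters and not a measured binding site, and TET2 was not called. For DNMT3B, TET3 and IDH2 no window lay at the outermost start, so that region was not searched. The paper reports IRF8 binding mostly outside promoters, which this search did not cover.

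IDH1 and IDH2, which supply the alpha-ketoglutarate that the TET enzymes consume, differed in their pattern. IDH1 had 4126, 5531, 3970.15 and 8359.9 normalized counts in Control and 7371, 8804, 7061 and 15597 in IRF8 KO. The groups overlapped through Control replicate 4 alone, which lay above IRF8 KO replicates 1 and 3, and within same-numbered pairs the knockout was 1.79, 1.59, 1.78 and 1.87 times the Control in replicates 1 to 4. The log2 fold change was 0.81, with an SE of 0.31 without the block (adjusted p = 0.11 by limma, exact permutation p = 0.086) and of 0.10 with it (adjusted p = 0.0013 by limma, 0.0015 by edgeR). IDH1 was thus called higher only where libraries of the same number were compared, or where replicates 1 and 3 were separated from 2 and 4 (adjusted p = 0.011), or where limma weighted the libraries (log2 fold change 1.08, adjusted p = 0.042). With the block 14.2% of all tested genes were called higher.

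IDH2 had 17552.5, 14489, 17195 and 14826 normalized counts in Control and 17354, 14233, 19294 and 15459 in IRF8 KO. Replicates 1 and 3 were the higher pair in each group, and 2 of the 4 knockout values lay within the Control range, with replicate 3 above it and replicate 2 below it. The log2 fold change of 0.05 had a 95% confidence interval from -0.25 to 0.34 (adjusted p = 0.86 by limma). The count ratio of IDH1 to IDH2 was higher in the knockout in 4 of 4 same-numbered pairs, with a log2 difference of 0.76 and overlapping groups (exact permutation p = 0.14, adjusted p = 0.24 over the 5 ratios).

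**Figure D3:**
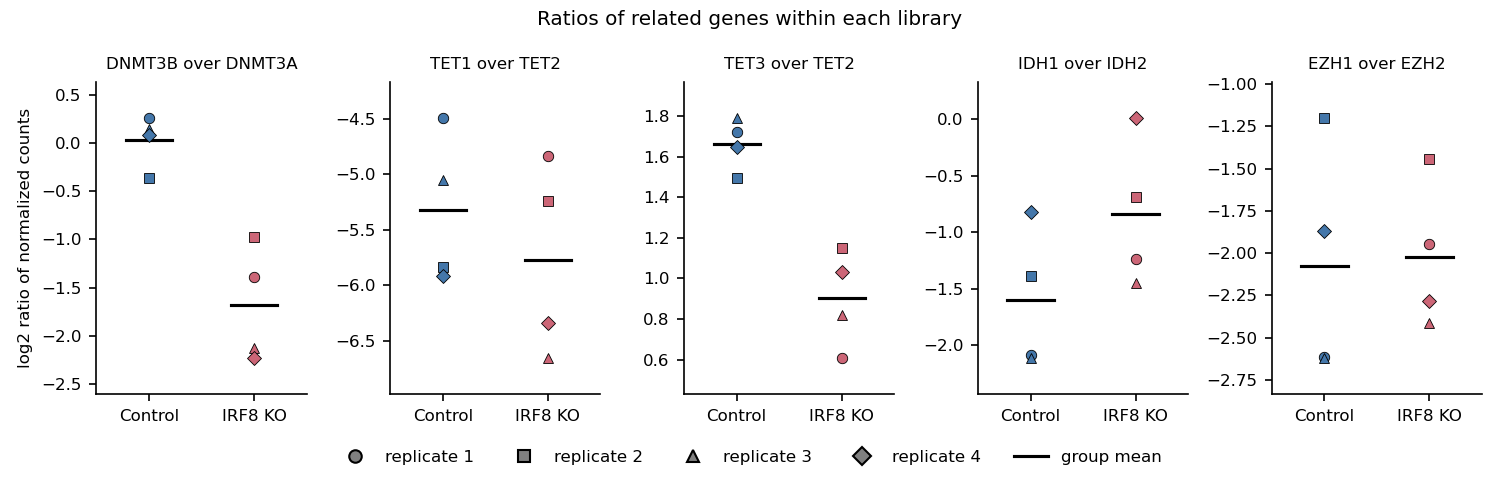
Log2 ratios of the normalized counts of 5 pairs of related genes in each library, with group means as black bars and marker shapes for replicate numbers. The vertical axes differ between panels and do not start at 0. DNMT3B over DNMT3A and TET3 over TET2 did not overlap between Control and IRF8 KO, and the other 3 ratios did.

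The list of TET partners and of genes that supply their cofactors held 22 tested genes, with a median log2 fold change of -0.02. Of these, 2 were called, both lower, which is 9.09% against 18.2% of all tested genes. SLC23A2, a transporter of vitamin C, which TET enzymes use as a cofactor, fell by 1.08 on the log2 scale (adjusted p = 0.0019 by limma). It lies on chromosome 20, and relative to that chromosome its log2 fold change was -0.17 (adjusted p = 0.50). SLC2A1, a glucose transporter that also carries oxidized vitamin C, fell by 0.51 (adjusted p = 0.023), a call that was lost in 5 of the 8 fits that left out a library (Control replicates 1, 2 or 4, IRF8 KO replicates 1 or 4). IDH3B, a subunit of the mitochondrial isocitrate dehydrogenase that uses NAD, had a log2 fold change of -0.67 (adjusted p = 0.068, 0.0051 with the block) and also lies on chromosome 20, relative to which it was at 0.23 (adjusted p = 0.56).

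EZH2, the histone methyltransferase of PRC2, had 6140.4, 3396, 6219 and 4704 normalized counts in Control and 5045, 4241, 5469.55 and 6024 in IRF8 KO. All knockout values lay within the Control range, which was set by a low Control replicate 2. The log2 fold change was 0.05 with a 95% confidence interval from -0.43 to 0.53 (adjusted p = 0.91 by limma). EZH1, its paralog in PRC2, had a log2 fold change of 0.10 (adjusted p = 0.76), and the log2 ratio of EZH1 to EZH2 differed by 0.05 between groups (exact permutation p = 0.89). The core subunits EED (-0.03, adjusted p = 0.95) and SUZ12 (-0.17, adjusted p = 0.45) were not called either.

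Of the 13 tested PRC2 genes, 1 was called, which is 7.69% against 18.2% of all tested genes. It was JARID2, an accessory subunit that helps to recruit the complex, with 1396 to 1979 normalized counts in Control and 869 to 1034 in IRF8 KO (log2 fold change -0.83, adjusted p = 0.0042 by limma). The groups did not overlap, and the call held when any library was left out. Of the 23 tested PRC1 genes, 2 were called (8.70%), both lower. BCOR, a scaffold of a PRC1 complex that is itself mutated in AML, fell by 0.92 on the log2 scale, from 8358 to 4454 mean normalized counts (adjusted p = 0.0081). SCMH1, a Polycomb protein, fell by 0.41 (adjusted p = 0.030), and this call was lost in 6 of the 8 fits that left out a library (all but those without Control replicate 4 or IRF8 KO replicate 4). The medians of the lists were -0.12 for PRC2 and -0.07 for PRC1.

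In the list of ASXL and BAP1 complex genes, 0 of 12 tested genes were called by limma, against 18.2% of all tested genes. By edgeR 0 were called and by DESeq2 3, against 2333 and 3402 of all 13110 tested genes. The median log2 fold change was -0.12. ASXL2, a paralog of ASXL1, had a log2 fold change of -0.22 (adjusted p = 0.47), and BAP1, the deubiquitinase, one of -0.12 (adjusted p = 0.67). With the block, 1 gene of this list was called higher and 1 lower, against 14.2% and 14.6% of all tested genes.

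KMT2A had 5602, 5154, 5626 and 5230.3 normalized counts in Control and 6960, 7036, 3755 and 6311 in IRF8 KO. The knockout libraries stood on either side of the Control range, 3 above it and replicate 3 below it. The log2 fold change was 0.11 with a 95% confidence interval from -0.34 to 0.57 (adjusted p = 0.77 by limma), and 0.32 without IRF8 KO replicate 3 (adjusted p = 0.069). Because MV4-11 cells carry a KMT2A-AFF1 fusion, gene counts of KMT2A and AFF1 sum reads of normal and fusion transcripts, which were not separated here. AFF1, the partner in this fusion, had a log2 fold change of 0.15 (adjusted p = 0.62).

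The list of KMT2A complex members and fusion partners held 30 tested genes, with a median log2 fold change of -0.11. Of these, 2 were called lower and 1 higher, together 10% against 18.2% of all tested genes. AFF3, a fusion partner of KMT2A in other leukemias and a relative of AFF1, had 2584 to 3535 normalized counts in Control and 2.13 to 50.2 in IRF8 KO. This was the largest difference in any of the lists, with a log2 fold change of -7.46 (SE 0.81, adjusted p = 4.8e-04 by limma). CDK9, the kinase of the elongation factor P-TEFb, which works with AFF proteins, fell by 0.61 (adjusted p = 0.0095). KAT8, a histone H4 acetyltransferase that binds KMT2A complexes, rose by 0.53 (adjusted p = 0.018) and lost the call without Control replicate 1 or 3. MEN1, which tethers KMT2A to chromatin, had a log2 fold change of -0.31 (adjusted p = 0.32), and DOT1L, a histone methyltransferase recruited by fusion proteins, one of -0.24 (adjusted p = 0.16).

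Among 18 genes known as targets of KMT2A fusion proteins, 5 were called, all lower, which is 27.8% against 18.2% of all tested genes, and the median log2 fold change was -0.30. The 5 called genes included BCL2, an inhibitor of apoptosis (log2 fold change -1.69), and ZFP36L2, an RNA-binding protein (-0.68). The others were the transcription factors RUNX2 (-1.42), MEF2C (-0.63) and MEIS1 (-0.56). Adjusted p-values by limma ran from 0.015 for ZFP36L2 to 0.032 for BCL2. For BCL2 the groups overlapped, with 12129 to 21165 normalized counts in Control and 2849 to 13067 in IRF8 KO (exact permutation p = 0.086). Only ZFP36L2 kept its call in every fit that left out a library. MEIS1 lost it in 7 of the 8 fits (all but the one without IRF8 KO replicate 2), BCL2 in 6 (all but those without Control replicate 1 or IRF8 KO replicate 2), MEF2C in 6 (all but those without IRF8 KO replicate 2 or 4) and RUNX2 in 4 (Control replicates 2 or 4, IRF8 KO replicates 1 or 3). BCL2 was not called by edgeR (adjusted p = 0.075). With the block, 5 genes of this list were called lower as well, against 14.6% of all tested genes in that direction. None of the 5 is on chromosome 20.

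**Figure D4:**
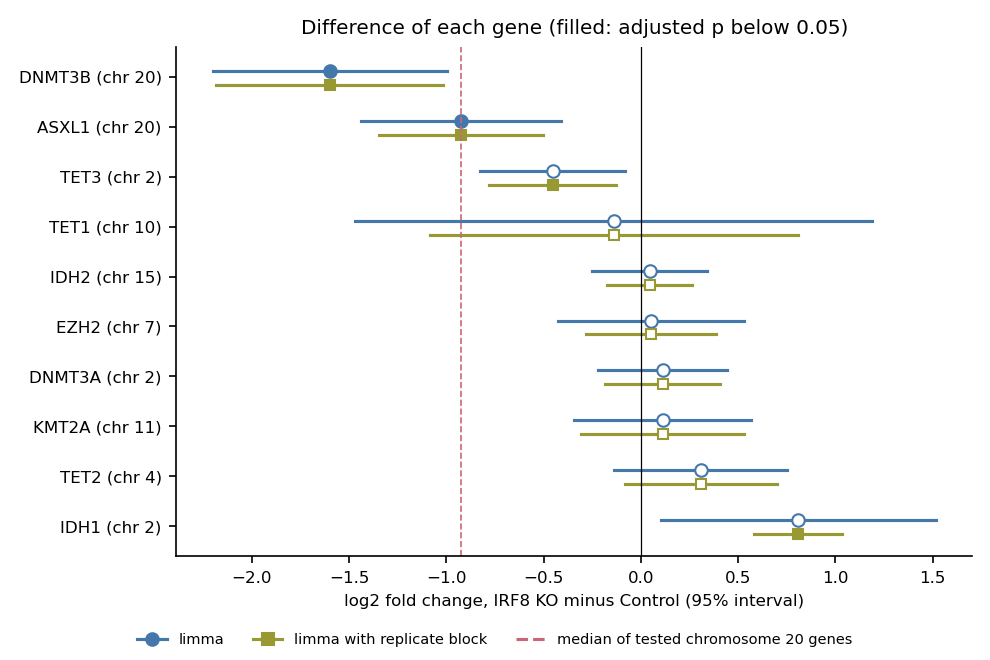
Log2 fold changes of the 10 genes (IRF8 KO minus Control) with unadjusted 95% confidence intervals from limma without (circles) and with (squares) the replicate block, filled where the adjusted p was below 0.05. DNMT3B and ASXL1 were filled in both fits, TET3 and IDH1 in the blocked fit alone, and ASXL1 sat on the median of the chromosome 20 genes (dashed line).

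The KMT2 family and the demethylases of H3K4 and H3K27 held 14 tested genes, with 1 called lower (7.14%) and a median log2 fold change of -0.21. NCOA6, a subunit of the KMT2C and KMT2D complexes, fell by 1.33 on the log2 scale (adjusted p = 3.2e-04 by limma). It lies on chromosome 20 and was at -0.43 relative to it (adjusted p = 0.067). KMT2C and KMT2D, tumor suppressors in several cancers, were both at -0.19 (adjusted p = 0.66 and 0.68), and the sign of both turned without IRF8 KO replicate 3. Among 23 other chromatin and cohesin genes that are mutated in AML, 20 were below zero with a median of -0.19. Only BCOR, already described, was called without the block, which is 4.35% against 18.2% of all tested genes. With the block 6 of the 23 were called, all lower, against 28.7% of all tested genes in either direction and 14.6% lower.

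Of the 22 tested proliferation genes, which served as a reference for growth state, 1 was called (4.55%). E2F1, a cell cycle transcription factor on chromosome 20, fell by 0.96 (adjusted p = 0.041 by limma). Relative to the chromosome it was at -0.06 (adjusted p = 0.92), and its call was lost in 6 of the 8 fits that left out a library (all but those without Control replicate 2 or 4). The median of the list was 0.11, and its summed counts ranged from 175647 to 472450 in Control and from 297143 to 375029 in IRF8 KO, so that the knockout range lay within that of Control. Because the Control libraries differed so widely, this sum cannot decide whether growth state differed. In cell counts and cell cycle analysis, the paper reports slower growth and an altered cell cycle of the knockout cells. Over all 10 lists together, each gene counted once, 17 of 183 tested genes were called lower and 1 higher. This was 9.84% of the listed genes against 18.2% of all tested genes, and 21.9% against 28.7% with the block. The calls for ZBTB38, SLC23A2, JARID2, BCOR, AFF3, CDK9, NCOA6 and ZFP36L2, 8 of the 18, were kept in each of the 8 fits that left out a library. Of these genes, SLC23A2 and NCOA6 lie on chromosome 20 and were not called relative to its median.

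**Figure D5:**
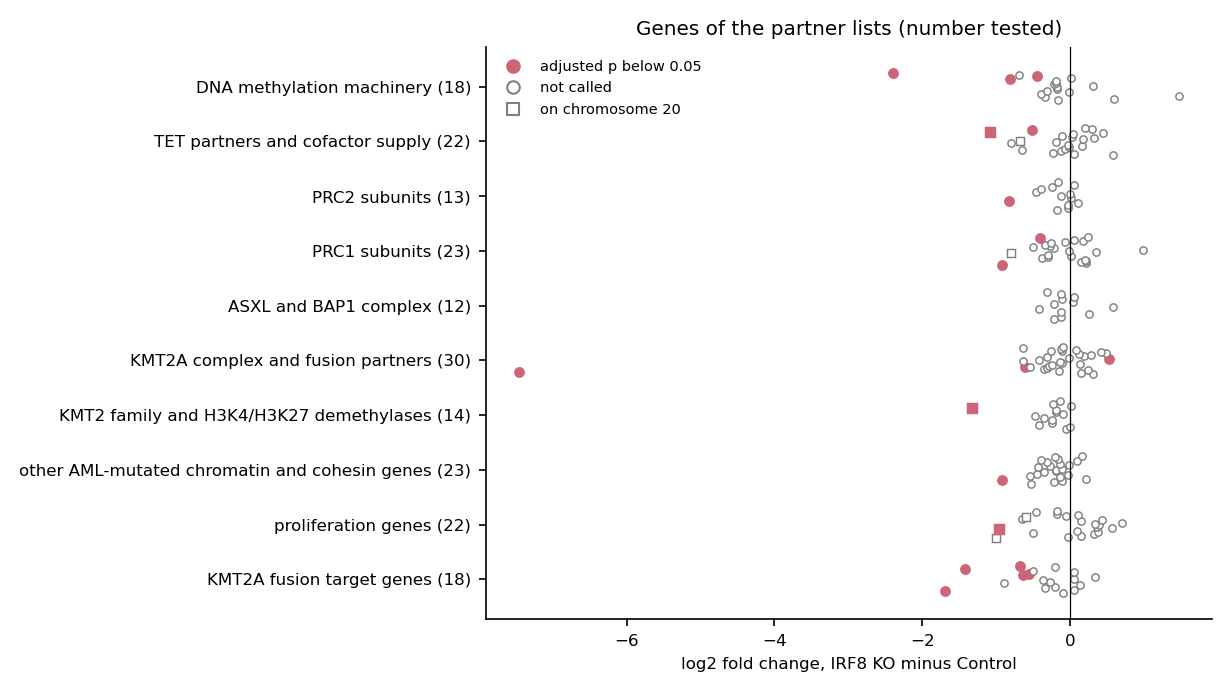
Log2 fold changes (IRF8 KO minus Control) of the tested genes of the 10 lists of partner and reference genes. Symbols are red where the adjusted p was below 0.05 and square for genes on chromosome 20. A gene is drawn in each list that holds it, so genes such as BCOR appear more than once. Most genes lay near zero, AFF3 stood apart at -7.46, and KAT8 was the only gene called higher.

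The spread within groups also differed. For 8 of the 10 members the standard deviation of the log2 values was larger in IRF8 KO than in Control, against 52% of all tested genes, the exceptions being DNMT3A and EZH2. The coefficient of variation of TET3 was 2.91% in Control and 20.5% in IRF8 KO, that of KMT2A 4.55% and 25.6%, and that of ASXL1 6.01% and 34.7%. For 8 of the 10 members the lowest of the 4 knockout libraries was replicate 3, which was the lowest for 29.8% of all tested genes. For the other 2 members, IDH2 and EZH2, it was replicate 2. These counts describe the libraries and were not tested. The part of read depth, which was lowest in IRF8 KO replicate 3, and that of differences between knockout clones were not tested either.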

How the data were processed

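RNA from MV4-11 cells was sequenced in 4 Control and 4 IRF8 KO libraries. By the methods section and the labels, reads from a stranded mRNA kit were aligned with RNA-Star to GENCODE transcripts, counted per gene with featureCounts and normalized with DESeq2. The strand setting of the counting and the RNA-Seq genome build are not given in the sources used here. In the table used, the deposited signal per gene is the read count divided by a size factor for each library, made by the authors for 19590 genes. The deposited columns named wild type were taken as the Control libraries of the same number. The authors' table of their own comparison and the IRF8 ChIP-Seq samples were not used here. Scaled back, 100% of the values were whole reads within a tolerance of 0.01 reads.

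The 13110 genes whose mean over the 8 libraries reached 10 normalized counts were compared on log2(normalized count + 1) with limma 3.58.1 in R 4.3.3 (trended, robust prior variance, Benjamini-Hochberg adjustment). Such fold changes understate the change of genes with low counts. Exact two-sided permutation tests over the 4 and 4 libraries were made with scipy 1.17.1. Alternatives were fits to the recovered reads with edgeR 4.0.16 and DESeq2 1.42.0, other pseudocounts, filters and scalings, library weights, no trend, a replicate block, replicates 1 and 3 against 2 and 4 as a covariate, and leaving out each library. An edgeR fit with the replicate block was chosen after seeing the data. The fits were tested on simulated data. Deviations of same-numbered Control and IRF8 KO libraries from their group means correlated at 0.37, 0.48, 0.45 and 0.50 across genes, all over the limit of 0.1 at which the numbers were taken to pair the libraries, although no label says what a number marks. The pairing was not specific to the number. Control replicate 1 correlated more with IRF8 KO replicate 3 (0.47) than with replicate 1, the other pairs across 1 and 3 and across 2 and 4 reached 0.40 to 0.41, and all remaining pairs were between -0.47 and -0.37. The data therefore show replicates 1 and 3 against 2 and 4, and calls made only with the block rest on that structure.

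Chromosomes, gene order and promoter windows came from RefSeq (GRCh38.p14), matched by symbol for 13003 tested genes and all 10 members. Its lengths are genomic spans, so levels per transcript length were not computed. The members and lists were chosen with earlier results of these data known. Genes named from the lists were up to 5 called genes per list and the core partners DNMT1, UHRF1, EZH1, EED, SUZ12, ASXL2, BAP1, MEN1, DOT1L, AFF1, KMT2C, KMT2D and IDH3B. RYBP and SMC3 were not analysed here, and DNMT3L, CXXC4, EZHIP and ASXL3 were below the filter. Reads of DNMT3A, TET1 and IDH1 may be shared with the pseudogenes DNMT3AP1, TET1P1 and IDH1P1. DNMT3A, TET1, TET2, TET3, IDH2, EZH2 and KMT2A overlap other annotated genes. The counts of all these members are uncertain to that extent.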

Additional observations from a re-analysis of the deposited data

Results flagged for a closer look

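DNMT3B in Control replicate 4 stood apart from the other Control libraries, with 2112 normalized counts against 1656 to 1726 in the other 3. The gap took up 0.846 of the range of the group, over Dixon's 95% critical value for 4 libraries. It was the only one of 82 groups of 4 libraries examined (genes named in the text and their ratios) that did so, where chance alone would flag about 1 in 20. Without this library the log2 fold change of DNMT3B was -1.52 (adjusted p = 0.014 by limma).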

How the results depend on the processing

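The number of called genes depended most on how the replicate numbers entered the fit. Against 2387 called genes in all, the replicate block gave 3769, edgeR with the block 3682, and the covariate for replicates 1 and 3 against 2 and 4 gave 4333. The count of called members went from 2 to 4 in each of these 3 fits, with TET3 and IDH1 added, and was 1 to 2 when a library was left out. The 18 calls in the partner lists became 40 with the block, 41 with edgeR and the block, 52 with the covariate and 29 with DESeq2. Calls over all tested genes rose in each of these fits too, to 3402 with DESeq2. When a library was left out, the lists held 10 to 17 calls, lowest without Control replicate 1 (10) and IRF8 KO replicate 1 (11). DNMT3B relative to chromosome 20 passed the test only without IRF8 KO replicate 2 (-0.92), and ranged from -0.92 to -0.53 over the libraries left out. ASXL1 relative to chromosome 20 lay near zero in every fit and turned its sign with a mean of at least 100 (0.030), with no filter (0.10) and over the libraries left out (-0.19 to 0.14). Signs also turned for members that were not called. TET1 was at 0.12 with edgeR, 0.13 with DESeq2, 0.0038 with quantile normalization and -0.62 to 0.29 over the libraries left out. IDH2 was at -0.027 with library weights, -0.012 with quantile normalization and -0.030 to 0.12 over the libraries left out, and EZH2 at -0.0092 with library weights and -0.13 to 0.16. Of the partners, EED ranged from -0.15 to 0.10 over the libraries left out, turning in 4 of the 8 fits, and KMT2C (-0.32 to 0.053) and KMT2D (-0.32 to 0.088) turned without IRF8 KO replicate 3. The causes were not tested. The estimation of the library weights stopped before its convergence tolerance was reached. The block changed no other call of a member. The called share that was higher lay between 44.9% and 50.6% in all settings. With 4 libraries in each group the exact test cannot go below 0.029, and with 4 pairs a sign-flip test cannot go below 0.125. Levels near 10 normalized counts rest on about as many reads, which limits TET1 and no other member.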
